A study of Mus musculus with 6 samples.

Results

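The Janus kinases and STAT factors are the intracellular relay of most cytokine receptors that lung group 2 innate lymphoid cells (ILC2s) carry. The genes described are the 4 Janus kinases Jak1, Jak2, Jak3 and Tyk2 and the 5 STAT factors Stat3, Stat4, Stat5a, Stat5b and Stat6, chosen by gene symbol. They are 9 of the 55394 genes in the deposited tables. A second entry under the symbol Stat5a and a second one under Stat6 carry the identifiers of Ntng2 and Zfp930, and both were left out.

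SMART-seq, an RNA sequencing method for very few cells, was run on 6 libraries of 1000 lung ILC2s, sorted as CD45+ Lin- CD90.2+ CD25+ cells from wild type C57BL/6 neonates. In the Abx group (3 libraries) the pups were born to dams that drank a mix of ampicillin, metronidazole, neomycin and vancomycin from day 10 to day 14 of gestation. The control group (Con, 3 libraries) came from control dams, not given this mix. The sources used here give neither the age of these pups nor the number of animals behind a library, so the tests measure the spread between libraries, which may be technical in part. Values are FPKM, fragments scaled to transcript length and library total, so that levels of different genes can be compared. The read depth is unknown.

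A cytokine receptor has no kinase of its own. Janus kinases sit on the receptor tails and, once a cytokine brings the chains together, phosphorylate the tails and the STAT factors that dock there. The STAT factors then pair and move to the nucleus as transcription factors. In ILC2s, IL-2, IL-7 and TSLP signal mainly to STAT5, and IL-4 and IL-13 to STAT6. JAK3 serves only receptors that contain the common gamma chain, whereas JAK1 serves these and many others. TYK2 and JAK2 work on the IL-12 receptor, TYK2 with JAK1 on the type I interferon receptor, and JAK2 with JAK1 on the interferon gamma receptor.

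Total FPKM ranged from 420941 to 489262 per library, and genes at 1 FPKM or more numbered 8574 to 9203 in Con and 7074 to 8193 in Abx. The ILC2 transcription factors Gata3 (33.9 to 97.5 FPKM) and Rora (35.1 to 99.9 FPKM) and the IL-7 receptor chain Il7r (18.1 to 57.3 FPKM) were present in every library. The IL-33 receptor Il1rl1, a defining marker, was low, at 0.06 to 2.94 FPKM in Con and 0.01 to 0.03 in Abx. Its groups did not overlap, by a small margin near 0, and it was not tested. Summed markers of other cells differed between the groups, although the lineage antibodies of the sort included CD3e, CD4, CD5, CD8a and TCR-beta against T cells, B220 against B cells and NK1.1 against NK cells. The 12 T cell markers summed to 272 to 290.1 FPKM in Con and 458 to 544 in Abx. Lat had the highest mean, whereas the largest differences were those of Cd3d (4.46 to 8.32 FPKM in Con, 37.15 to 107.99 in Abx) and Cd8b1 (0.00 to 10.17 and 27.06 to 52.18). Of the 7 T cell markers tested, 6 had a positive fitted difference and 1, Trac, a negative one (3.01 to 11.67 and 0.22 to 21.18). Cd8a, the partner chain of Cd8b1, was not tested and reached at most 3.25 FPKM in Con and 0.04 in Abx. The 10 B cell markers summed to 402 to 519 in Con and 857 to 958 in Abx, mostly through Ighm (109.49 to 159.26 and 357.66 to 428.74) and Igkc (126.91 to 218.47 and 260.97 to 364.82), while Cd79b (69.46 to 116.78 and 31.01 to 57.43) and Cd22 (2.74 to 10.98 and 0.06 to 1.33) lay lower in Abx without overlap. The 10 NK and ILC1 markers summed to 14.9 to 82.8 in Con and 288 to 431 in Abx. This came mostly through Gzma (0.00 to 13.78 and 215.41 to 223.60) and Nkg7 (7.61 to 37.26 and 52.16 to 212.26). Other members went the other way: Gzmb overlapped with a negative fitted difference (5.78 to 22.23 and 0.00 to 20.03). Ncr1 and Klrk1 reached 7.90 and 5.28 FPKM in Con but were at 0 throughout Abx. Of the NK and ILC1 list the defining genes Tbx21, Klrb1c, Klra8 and Prf1 were at 0 in all 6 libraries, and Cd4 was at 0 in 5 of them. The 16 ILC2 markers summed to 3101.9 to 3487.4 in Con and 2233.4 to 2885.8 in Abx, but 7 of the 15 tested had a positive fitted difference and 8 a negative one. Among the tested ILC2 markers the groups did not overlap, with Abx lower, for Areg, Arg1, Icos and Calca, and, with Abx higher, for Ptprc. Over all genes tested, 8.73% lay lower in Abx without overlap and 8.49% higher. Markers outside the naming rule were added after their values were seen. Myeloid markers, led by Lyz2, summed to 153 to 406 in Con and 171 to 396 in Abx, and epithelial and stromal markers, led by Scgb1a1, to 31.6 to 1161.4 and 69.1 to 148. The highest of these last sums came mostly from Scgb1a1 in the first Con library (1109.16 FPKM). Of the 4 epithelial and stromal markers tested, 2 had a positive fitted difference and 2 a negative one. Only Sftpc was without overlap, and it was higher in Abx (11.26 to 36.82 FPKM in Con, 48.31 to 56.09 in Abx). Xist, which marks female cells, was at 3.78 to 5.09 FPKM across Con but listed at 0 throughout Abx, so exposure and the sex of the pups cannot be told apart. This rests on 1 transcript at a low level. Of all 6406 genes tested that reached 1 FPKM throughout Con, 3.57% stayed under 1 FPKM throughout Abx. The part of the marker and Xist differences in the results that follow was not tested. In sorted cells, fewer cells that express a gene and less RNA per cell cannot be told apart either.

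STAT5 is encoded by 2 genes that are near copies of each other. In the GENCODE M21 annotation of GRCm38, Stat5b (chr11:100780731-100850724, minus strand), Stat5a (chr11:100859351-100885169, plus strand) and Stat3 (chr11:100885098-100939540, minus strand) lie side by side over 158810 bases. The first bases of Stat5b and Stat5a are 8627 bases apart, and Stat5a and Stat3 share 72 exon bases on opposite strands. The coding sequences of Stat5a (2382 bases) and Stat5b (2361 bases) were 90.9% identical over 2344 aligned bases. Of all 50-base windows of the Stat5a coding sequence, 26.1% occur unchanged in Stat5b, and of 100-base windows 11.6%. The longest identical stretch ran over 324 coding bases. The 152-base coding exon inside it is shown because a short read from it cannot be assigned to either gene; it lies at chr11:100874339-100874490 (plus strand) in Stat5a and at chr11:100798234-100798385 (minus strand) in Stat5b.
Stat5a and Stat5b: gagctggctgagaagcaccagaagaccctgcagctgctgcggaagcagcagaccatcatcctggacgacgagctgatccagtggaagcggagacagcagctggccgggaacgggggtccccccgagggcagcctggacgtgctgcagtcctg

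The reverse case is the 60-base window with the most mismatches, 19 of its bases, which tells the genes apart. It lies near the end of both coding sequences, at chr11:100883836-100883895 in Stat5a and chr11:100783161-100783220 in Stat5b, and capitals mark the bases that differ.
Stat5a: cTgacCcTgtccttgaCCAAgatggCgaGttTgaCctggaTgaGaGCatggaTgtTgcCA
Stat5b: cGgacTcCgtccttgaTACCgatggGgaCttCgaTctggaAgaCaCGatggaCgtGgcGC
The Stat5a and Stat5b values below therefore rest in part on how the reads of shared stretches were divided, and the division between them is uncertain.

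Among the kinases Jak1 was the most abundant, and among all 9 genes it had the highest value in each of the 6 libraries. Jak1 (chr4:101152367-101265282, minus strand) reached 58.42, 36.99 and 43.60 FPKM across Con, against 20.31, 34.99 and 50.11 FPKM across Abx. Its group means were 46.3 ± 11 FPKM for Con, against 35.1 ± 14.9 FPKM for Abx (SD over n = 3 libraries each), and the groups overlapped. Its fitted Abx minus Con difference on log2(FPKM + 1) was -0.45 (SE 0.42, 95% interval -1.42 to 0.51, limma adjusted p = 0.755). It was -0.12 without the first Abx library and -0.75 without the third Abx library.

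Jak2 (chr19:29251828-29313080, plus strand) had 13.95, 8.16 and 9.49 FPKM in Con, with 13.16, 11.47 and 31.72 FPKM in Abx. The third Abx library stood above all others, and the other Abx libraries lay within the Con range. The fitted difference was 0.67 (SE 0.57, 95% interval -0.66 to 2.00, limma adjusted p = 0.738), and 0.24 without the third Abx library.

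Jak3 (chr8:71676296-71690575, plus strand), the kinase of the common gamma chain, measured 23.12, 33.73 and 18.98 FPKM across Con and 0.52, 5.18 and 18.67 FPKM across Abx. The groups did not overlap, but the highest Abx library and the lowest Con library lay side by side. Its mean was 25.3 ± 7.61 FPKM for Con, against 8.12 ± 9.43 FPKM for Abx (SD over n = 3 libraries each). The fitted difference was -2.17 (SE 0.93, 95% interval -4.34 to 0.004), with an unadjusted limma p of 0.0503 and an adjusted p of 0.454. It was -1.21 without the first Abx library and -3.06 without the third Abx library. Jak3 shares 404 exon bases (7.55%) with Insl3 on the same strand, and Insl3 was at 0 in all 6 libraries.

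Tyk2 (chr9:21104068-21131243, minus strand) showed 0.00, 0.01 and 3.55 FPKM in the Con libraries, against 11.73, 3.49 and 0.02 FPKM in the Abx libraries. It was near 0 in 2 Con libraries and 1 Abx library, and 1 library of each group lay at 3.55 or 3.49 FPKM. The fitted difference was 1.22 (SE 1.05, 95% interval -1.22 to 3.66, limma adjusted p = 0.738), and 0.36 without the first Abx library. The summed Janus kinases came to 95.5, 78.9 and 75.6 FPKM across Con, against 45.7, 55.1 and 101 FPKM across Abx. These sums overlapped (exact permutation test, two-sided, p = 0.5). Jak3 made up 24.2%, 42.8% and 25.1% of the sum in Con and 1.14%, 9.4% and 18.6% in Abx. This share follows from the Jak3 values, whose groups were already seen not to overlap, and is given as a description only. The sums and shares were chosen after the values were seen.

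**Figure D1:**
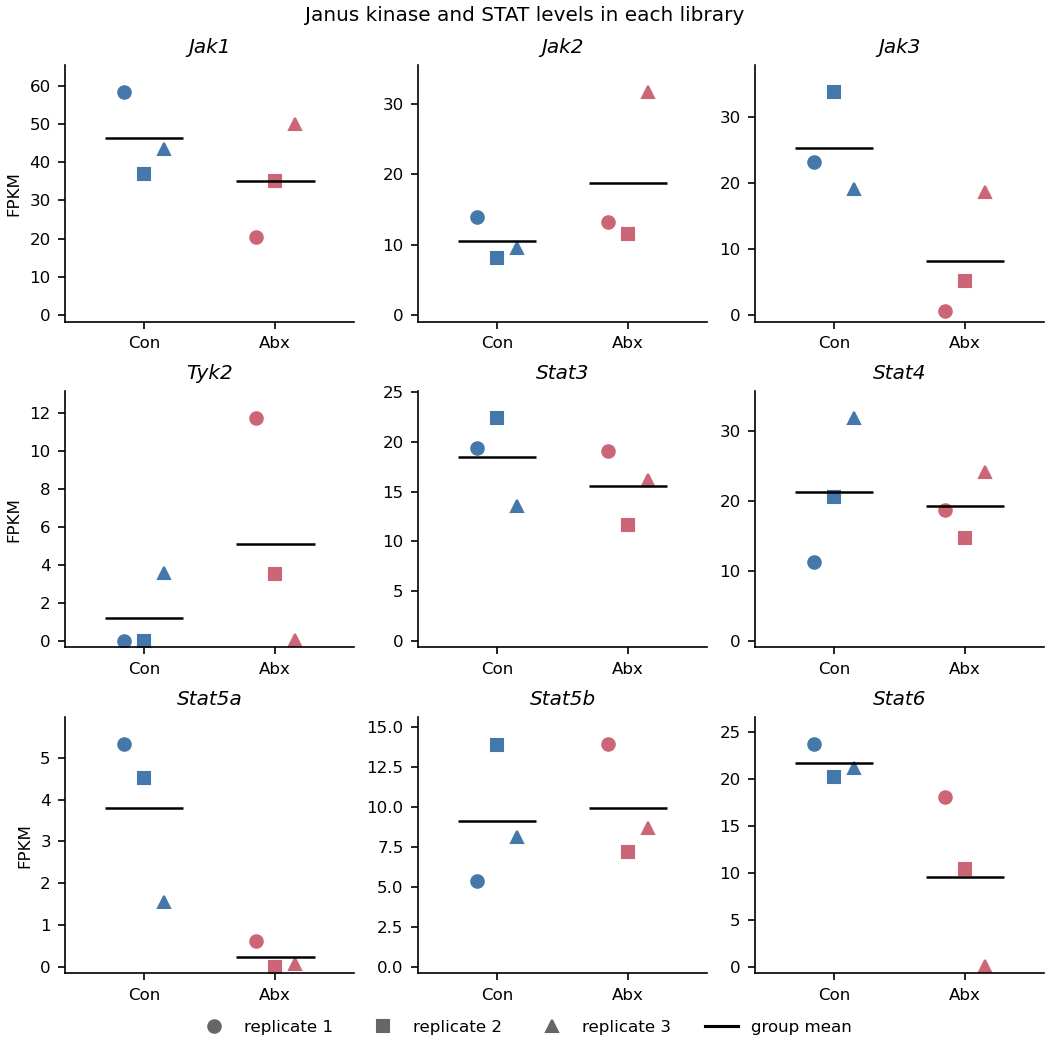
FPKM of the 9 genes in each library, by group, on linear axes that start near 0 and differ between panels. Points are libraries, with the replicate number shown by the marker, and lines are group means. In the panels of Jak3, Stat5a and Stat6 each Abx point lies below every Con point.

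Of the STAT factors, Stat3 and Stat4 overlapped between the groups. Stat3, which relays IL-6 family cytokines, IL-10 and IL-23, reached 19.39, 22.43 and 13.54 FPKM across Con, against 19.05, 11.64 and 16.17 FPKM across Abx. Its fitted difference was -0.22 (SE 0.46, 95% interval -1.29 to 0.84, limma adjusted p = 0.899). Stat4 (chr1:51987148-52107189, plus strand), the main STAT of IL-12, had 11.22, 20.63 and 31.88 FPKM in Con, with 18.71, 14.76 and 24.19 FPKM in Abx. The Abx values all lay inside the Con range, and the fitted difference was -0.050 (SE 0.51, 95% interval -1.23 to 1.13, limma adjusted p = 0.983). These intervals include a change by a factor of 2 in one direction or both, so the data do not show that the levels were equal. Stat4 shares 26.7% of its exon bases with Gm28177 on the same strand, which was at most 0.4 FPKM in any library.

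Stat5a was lower in Abx than in Con in all pairs of libraries. It measured 5.34, 4.53 and 1.55 FPKM across Con and 0.62, 0.00 and 0.06 FPKM across Abx. The groups did not overlap. The fitted difference was -1.90 (SE 0.57, 95% interval -3.22 to -0.58), with an unadjusted limma p of 0.0108 and an adjusted p of 0.212, so it did not pass the adjusted threshold. The unadjusted limma p was 0.0502 with no filter on low values and 0.0931 with quantile normalization. Since log2(FPKM + 1) flattens low values, this size understates the ratio. Stat5a was at 1 FPKM or more only in the Con libraries, and so passed the filter on low values only through the group in which it was high. Of the 8 members that reached 1 FPKM throughout Con, it was the 1 that stayed under 1 FPKM throughout Abx, and of all 6406 genes tested that reached 1 FPKM throughout Con, 3.57% did so.

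Stat5b, its near copy, showed 5.37, 13.90 and 8.11 FPKM in the Con libraries, against 13.95, 7.20 and 8.70 FPKM in the Abx libraries. Its groups overlapped, with a fitted difference of 0.15 (SE 0.63, 95% interval -1.30 to 1.61, limma adjusted p = 0.952). Stat5a and Stat5b together, a quantity that depends less on how shared reads were divided, came to 10.7, 18.4 and 9.66 FPKM across Con, against 14.6, 7.2 and 8.76 FPKM across Abx. The sums overlapped (exact permutation p = 0.5, where 0.1 is the smallest this test can give). The test cannot show that the sums were equal. Stat5a made up 49.9%, 24.6% and 16% of this sum in Con and 4.26%, 0% and 0.685% in Abx. This share follows from the Stat5a values, whose groups were already seen not to overlap, so it is given as a description only. It also depends on the uncertain division of shared reads.

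**Figure D2:**
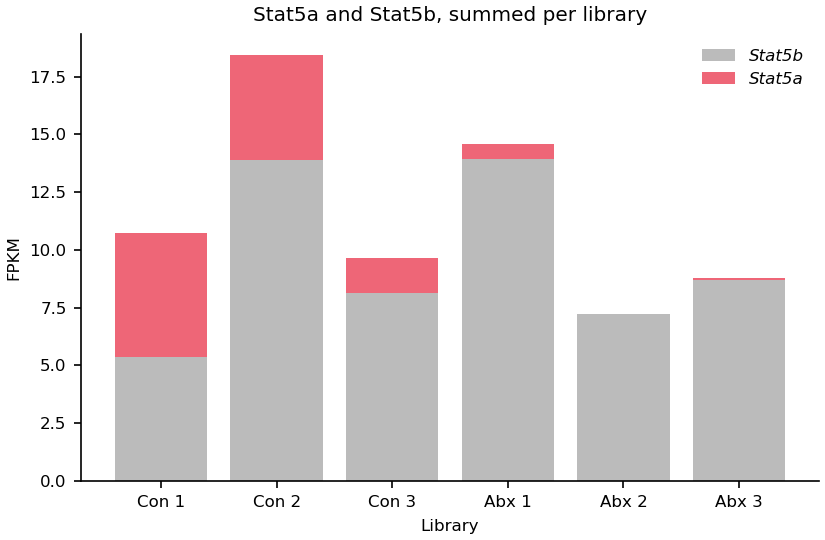
Stacked FPKM of Stat5b (grey) and Stat5a (red) in each library, on a linear axis from 0. Stat5a forms 16% to 49.9% of the bar in the Con libraries and at most 4.26% in the Abx libraries, whereas the heights of the bars overlap between the groups.

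Stat6 (chr10:127642986-127660957, plus strand), the factor of IL-4 and IL-13, was even in Con, at 23.73, 20.15 and 21.12 FPKM, and uneven in Abx, at 18.03, 10.44 and 0.10 FPKM. The groups did not overlap. Means were 21.7 ± 1.85 FPKM for Con, against 9.52 ± 9 FPKM for Abx (SD over n = 3 libraries each). The fitted difference was -1.86 (SE 1.05, 95% interval -4.30 to 0.57, limma adjusted p = 0.591). It rested largely on the third Abx library: without that library it was -0.62. The summed STAT factors were 65, 81.6 and 76.2 FPKM across Con, against 70.4, 44 and 49.2 FPKM across Abx, and overlapped (exact permutation p = 0.2).

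Counted over the 9 genes, all 9 passed the filter and none was called, by limma at a fold over 2 and an adjusted p under 0.05. Of the 8718 genes tested 0.0574% were called. At an unadjusted p under 0.05 there was 1 member, Stat5a, where 11.0% of all genes tested lay. The groups of 3 members did not overlap, with Abx lower each time, against 8.73% of all genes tested, and none did so with Abx higher, against 8.49%. Fitted differences were negative for 6 members and positive for 3, with a median of -0.22 beside -0.064 for all genes tested. The low values were not spread evenly over the Abx libraries. Set against the Con means, the member that was furthest down was Jak3 in the first, Stat5a in the second and Stat6 in the third. Of the 9 members 4 were under 1 FPKM in at least 1 library, where 51.2% of all genes tested were.

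**Figure D3:**
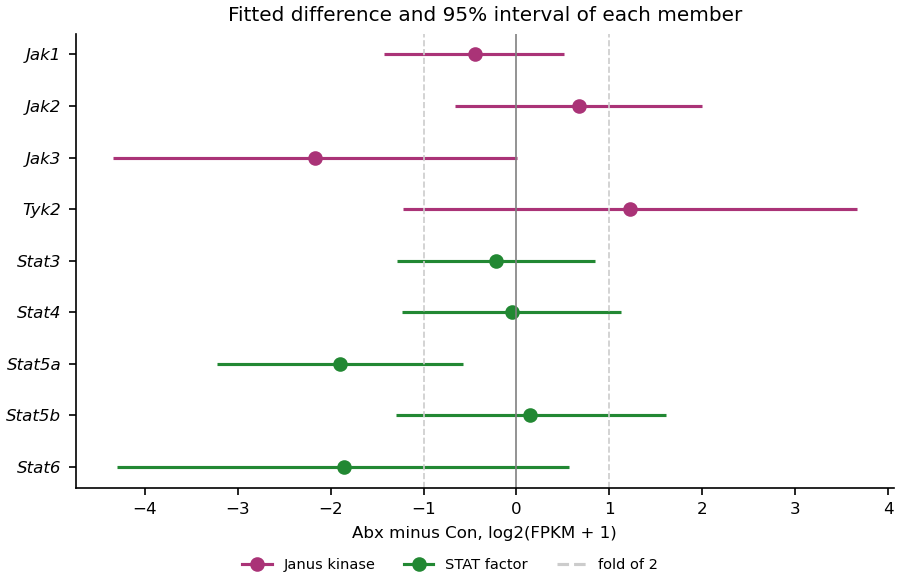
Fitted Abx minus Con difference of each gene on log2(FPKM + 1), with its 95% interval from limma. Dashed lines mark a fold of 2. The interval of Stat5a (-3.22 to -0.58) lies below 0, but this gene passed the filter only through the Con libraries, and with no filter its unadjusted limma p was 0.0502. The other 8 intervals include 0.

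Ordered by mean FPKM in Con, Jak1 was followed by Jak3, Stat6, Stat4, Stat3, Jak2, Stat5b, Stat5a and Tyk2. Only 2 steps in this order separated the libraries without overlap, from Jak1 to Jak3 and from Stat5b to Stat5a. In Abx the order was Jak1, Stat4, Jak2, Stat3, Stat5b, Stat6, Jak3, Tyk2 and Stat5a, and the libraries of every pair of neighbours overlapped. Jak3 stood at place 2 in Con and 7 in Abx, and Stat6 at place 3 and 6.

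The receptor chains that recruit these proteins were taken from a list of 28 genes, of which 14 passed the filter. None was called by limma. At an unadjusted p under 0.05 there was 1 chain higher in Abx and 1 lower, where 11.0% of all genes tested lay, and the median fitted difference was -0.68. Ifngr1, the interferon gamma receptor chain that binds JAK1, reached 111.54, 79.40 and 94.26 FPKM across Con, against 167.24, 129.72 and 175.79 FPKM across Abx, without overlap (0.72, SE 0.25, limma adjusted p = 0.294). Il10ra, the chain of the IL-10 receptor that binds JAK1, had 45.01, 19.22 and 12.37 FPKM in Con, with 0.09, 14.19 and 1.26 FPKM in Abx (-2.79, SE 1.07, limma adjusted p = 0.373). The largest negative difference was that of Il12rb1, the chain of the IL-12 and IL-23 receptors that binds TYK2, with 10.67, 45.67 and 13.31 FPKM across Con and 0.06, 0.00 and 20.66 FPKM across Abx (-2.80, SE 1.30, limma adjusted p = 0.491). Il7r followed Ifngr1 on the positive side, with 0.53 (SE 0.45, limma adjusted p = 0.735). Il2rg, the common gamma chain itself, which was added after its values were seen, was at 1046.74 to 1237.25 FPKM in the 6 libraries, with a fitted difference of -0.051 (SE 0.16, limma adjusted p = 0.934). Il2ra encodes CD25, which the sort selected. The Il2rg transcript was even across the 6 libraries and far above that of Jak3, which ranged from 0.52 to 33.73 FPKM. Whether their difference in evenness goes beyond this difference in level was not tested.

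Inhibitors of the pathway were taken from a list of 19 genes, and 14 passed the filter. None was called, and 1 was lower and none higher at an unadjusted p under 0.05, where 11.0% of all genes tested lay, with a median of -0.031. Pias3, known as an inhibitor of STAT3, measured 3.95, 11.69 and 3.41 FPKM across Con and 0.06, 0.02 and 0.00 FPKM across Abx, without overlap. Its fitted difference was -2.67 (SE 0.61, unadjusted p = 0.0026, limma adjusted p = 0.115). Like Stat5a, it passed the filter only through Con. Pias4 had the largest positive difference (1.44, SE 0.92, limma adjusted p = 0.652), followed by the phosphatase Ptprc, which is CD45 and part of the sort (0.75, SE 0.38, limma adjusted p = 0.542). Socs2, a feedback inhibitor, was at 11.59 to 16.19 FPKM in 5 libraries and at 0.08 FPKM in the third Abx library (-1.34, SE 1.06, limma adjusted p = 0.715), the same library in which Stat6 was at 0.10 FPKM.

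Genes that STAT5 is known to induce were taken from a list of 16, and all passed the filter. None was called or at an unadjusted p under 0.05 (limma), where 11.0% of all genes tested lay, and the median was -0.39. Of the 16 targets 1 had groups that did not overlap, with Abx lower, where 8.73% of all genes tested lay. This was the kinase gene Pim1, added after its values were seen, with 8.99, 14.82 and 8.34 FPKM across Con, against 5.16, 5.24 and 3.56 FPKM across Abx (-1.02, SE 0.63, limma adjusted p = 0.638). Cish, the classical STAT5 feedback gene, added after its values were seen, showed 44.19, 103.33 and 64.79 FPKM in the Con libraries, against 86.94, 61.90 and 39.56 FPKM in the Abx libraries, overlapping (-0.16, SE 0.42, limma adjusted p = 0.922). The cytokine genes Osm and Lta had the largest negative differences. Osm reached 15.27, 28.45 and 33.60 FPKM across Con, against 0.00, 0.00 and 54.62 FPKM across Abx (-2.74, SE 1.52, limma adjusted p = 0.587). Lta had 44.73, 20.65 and 8.36 FPKM in Con, with 0.09, 32.53 and 0.00 FPKM in Abx (-2.66, SE 1.43, limma adjusted p = 0.567). For both genes the Abx libraries were split between values at or near 0 and values within or above the Con range. The survival gene Bcl2 (0.51, SE 0.68) and the cyclin gene Ccnd3 (0.34, SE 0.36) had the largest positive differences, with limma adjusted p of 0.843 and 0.792.

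**Figure D4:**
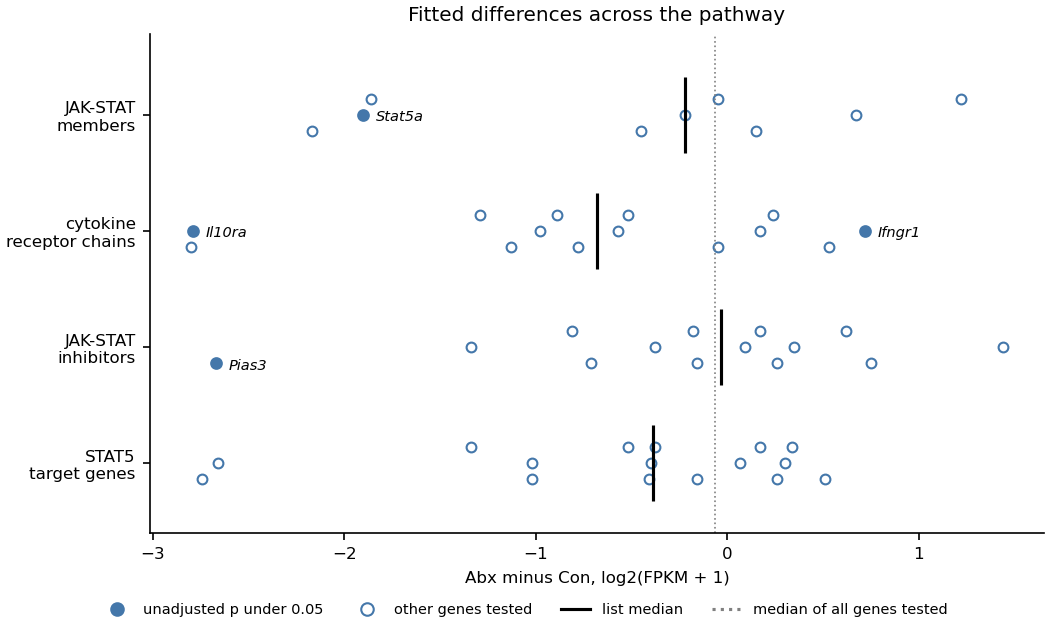
Fitted Abx minus Con differences on log2(FPKM + 1) for the genes tested in each list; each point is a gene, filled and named at an unadjusted p under 0.05. Black lines are list medians (-0.22, -0.68, -0.031 and -0.39 from top to bottom) and the dotted line is the median of all genes tested (-0.064).

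STAT5 dimers bind DNA at the palindrome TTCNNNGAA, which reads the same on both strands. No motif with another spacing was searched, so the search does not cover STAT sites of other spacing. It was searched in 300-base promoters of RefSeq on GRCm38.p6, from 250 bases before to 50 after each gene start, of which 8.3% of 32851 held it. All 9 members had a promoter in the table, 12 in all, and none held the motif. Among the STAT5 target genes 3 of 12 with a promoter held it, Cish, Socs3 and Lta, which is 25% against 9.55% of all genes. Of the inhibitors 2 of 11 held it, which are again Cish and Socs3, and of the receptor chains 4 of 22. The matches are shown because they are the letters a STAT5 dimer reads, with the motif in capitals, 5′ to 3′ on the strand of the gene. They lie at chr9:107296654-107296683 (Cish, plus strand), chr11:117969507-117969525 (Socs3, minus strand) and chr17:35205490-35205508 (Lta, minus strand, 1 of its 2 matches).
Cish: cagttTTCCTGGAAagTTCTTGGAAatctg
Socs3: cagccTTCTTAGAAgggag
Lta: cactcTTCAGGGAAccagg
A match in letters is not a measured binding site.

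Finally, each member was set beside the other 47 tested genes of the 4 lists, by Pearson's r of log2(FPKM + 1) over the 6 libraries of both groups. Jak1 was most like Pias1 (r = 0.95), Stat6 most like Crlf2 (r = 0.97), the TSLP receptor chain, and Jak3 most like Il4ra (r = 0.92), the IL-4 receptor chain. Stat5a was most like Pias3 (r = 0.91), Stat5b most like Ptpn11 (r = 0.88), Stat3 most like Bcl2l1 (r = 0.88), Tyk2 most like Bcl2 (r = 0.88), Stat4 most like Mcl1 (r = 0.85) and Jak2 most like Ifngr1 (r = 0.79). These values come from 6 points that share their library, each being the highest of 47, and are given as a description. Stat5a and Pias3 both passed the filter only through Con. Stat6 and Crlf2 were both lowest in the third Abx library, at 0.10 and 1.30 FPKM. Such shared low values raise r.

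**Figure D5:**
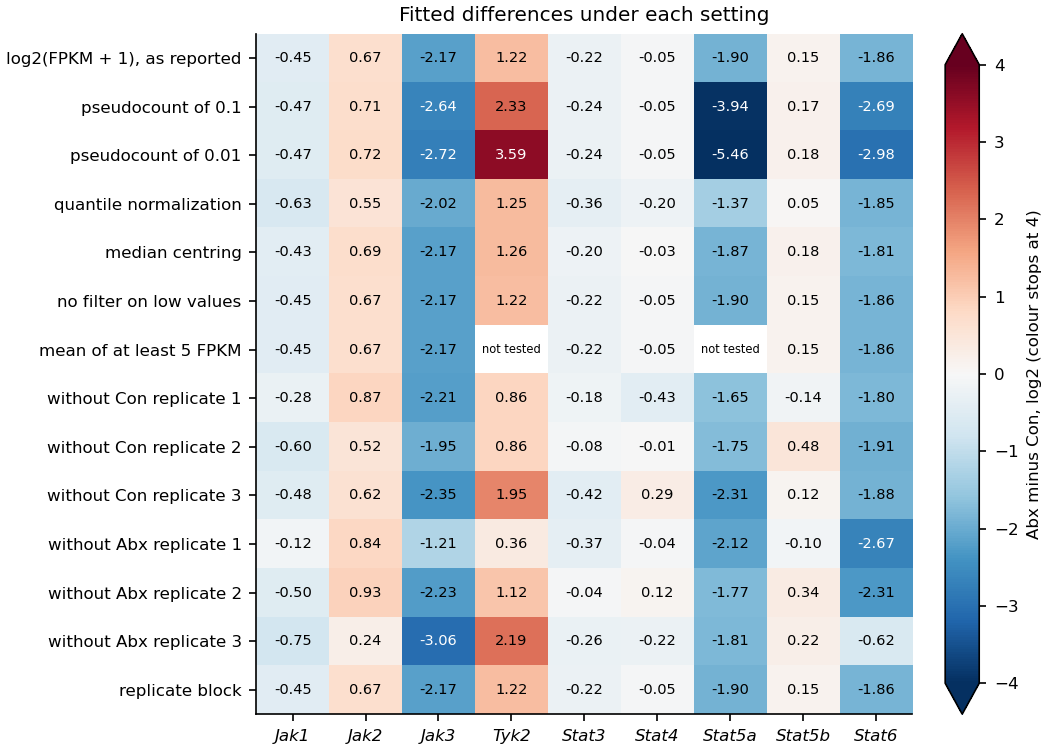
Fitted Abx minus Con difference of each gene (columns) under each setting of the analysis (rows), coloured from blue (lower in Abx) to red (higher in Abx). The columns of Jak3, Stat5a and Stat6 keep a negative value in all settings in which the gene was tested, and Stat4 and Stat5b change sign when single libraries are left out.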

How the data were processed

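The 6 deposited tables hold FPKM per gene, 1 table for each library. According to the methods, the authors trimmed the SMART-seq reads with Cutadapt, aligned them with HISAT2 and derived FPKM with StringTie. The submitters' processing notes instead name Bowtie 0.12.2 with mm8 and mm9, and the methods name a human annotation, although the identifiers are mouse. Coordinates therefore come from GENCODE M21 (55134 of the 55394 identifiers matched), not from the tables. Whether reads were counted by strand is not given in the sources used here.

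Genes at 1 FPKM or more in at least 3 of 6 libraries (8718) were fitted on log2(FPKM + 1) with limma 3.58.1 in R 4.3.3 (lmFit, eBayes with trend), two-sided, with Benjamini-Hochberg adjustment over all of them. A call needed a fold over 2 and an adjusted p under 0.05. FPKM give no read counts, so no counting error is stated. Sums were compared with exact permutation tests (smallest p 0.1), and shares are given as a description. Coding sequences, of the principal transcripts, were aligned with Biopython 1.88.

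Members and lists were chosen with earlier results of these data known. Named from each list were the genes at an unadjusted p under 0.05, the 2 largest fitted differences in each direction, the most similar gene of each member and the leading marker of each other cell type. Alternatives were other pseudocounts, quantile normalization, median centring, other filters, robust variance, a replicate block and leaving out each library.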

Additional observations from a re-analysis of the deposited data

Results flagged for a closer look

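The entry under the symbol Stat6 that carries the identifier of Zfp930, which none of the comparisons used, showed 3.73, 12.09 and 0 FPKM across Abx, against at most 0.02 FPKM across Con. It stood out because a signal appeared in 2 Abx libraries above the level of the controls. Read by symbol alone, it would be added to Stat6. The entry under Stat5a with the identifier of Ntng2 showed 0, 7.76 and 15.33 FPKM across Con, against at most 0.04 FPKM across Abx. With 3 libraries in each group, single libraries were not tested for standing apart.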

How the results depend on the processing

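No member was called under any alternative, and the lowest limma adjusted p of a member was 0.192 (Jak3 without the third Abx library). Over all genes the count of 5 fell to 0 with a pseudocount of 0.1 or 0.01, median centring, no filter or the replicate block, and to between 0 and 2 with a library left out. It rose to 7 with quantile normalization and to 7 with a mean of at least 5 FPKM, and stayed at 5 with robust variance. Members at an unadjusted p under 0.05 numbered 2 with median centring (Jak3 joined Stat5a), 0 with no filter, and 1 to 2 with a library left out. With quantile normalization Jak3 was the 1 member, and Stat5a was not among them, and with a mean of at least 5 FPKM it was again Jak3, since Stat5a is then not tested. Members whose groups did not overlap numbered 2 with quantile normalization or median centring and 3 to 5 with a library left out. The median of the members was -0.36 with quantile normalization and -0.42 to -0.040 with a library left out. Receptor chains at an unadjusted p under 0.05 numbered 1 with a pseudocount of 0.01 and 1 to 3 with a library left out; inhibitors numbered 2 with no filter, 0 with a mean of at least 5 FPKM (Pias3 is then not tested) and 1 to 2 with a library left out; STAT5 target genes 0 to 1. Of the 9 fitted differences 7 kept their sign in all alternatives. That of Stat4 ranged from -0.43 to 0.29 with a library left out, and was 0.29 without Con replicate 3 and 0.12 without Abx replicate 2, and that of Stat5b ranged from -0.14 to 0.48, and was -0.14 without Con replicate 1 and -0.10 without Abx replicate 1. Stat5a ranged from -5.46 with a pseudocount of 0.01 to -1.37 with quantile normalization, and Tyk2 from 0.36 to 3.59. The cause of these changes was not tested. All 9 members passed the filter as reported; with a mean of at least 5 FPKM, 7 were tested, and Stat5a and Tyk2 were not. No member was under the filter as reported, so there were no values of such members to vary.

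Replicate numbers recur in Abx and Con, but same-numbered libraries did not deviate together (r = -0.0199, -0.0286 and 0.00971), and no sample pair was assumed. With the replicate block 1 member, Stat5a, was at an unadjusted p under 0.05, no member was called, 3 receptor chains were at an unadjusted p under 0.05, and the median was -0.22.

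Read depth is unknown, so the counting error behind low FPKM cannot be given. With 3 libraries in each group, the intervals of all 9 members include differences of a factor of 2 or more in at least 1 direction.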
